A study of Mus musculus with 3 samples.

Results

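Hif1a, the glucose transporter genes Slc2a1 and Slc2a3, and 7 genes of glycolysis (Hk2, Pfkp, Aldoa, Gapdh, Pgk1, Pkm and Ldha) were followed in donor T cells of mice given cyclosporine (CSA) after allogeneic bone marrow transplantation (BMT). These 10 genes were taken by name from the 18029 genes of the deposited count table, which held all 10, and all 10 passed the filter on low counts in both CD4+ and CD8+ T cells. Irradiated B6D2F1 recipients in every group, controls included, received B6 bone marrow and B6 T cells together with a small number of TEa cells, which are CD4+ T cells with a single transgenic T cell receptor (TCR) for an alloantigen of the recipient. Treatment was daily, between day 0 and day 6, with saline or with CSA at a lower (5 mg/kg) or higher (50 mg/kg) dose, and spleen T cells were sorted on day 7 for droplet-based single cell RNA-Seq. The spleens of the 6 mice per group were pooled by 2, giving 3 hashtagged pools per group, and the pool is the replicate throughout. Each treatment group was 1 droplet capture, so an effect of the capture and an effect of the treatment cannot be told apart, and p-values measure only the spread between pools.

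After 280 TEa cells were set aside, 20924 cells remained. Unique molecular identifiers (UMIs, which count captured RNA molecules) were summed per pool and lineage, over 918 to 1528 cells and 4086252 to 7663132 UMIs in a CD4+ pool and over 692 to 1615 cells and 4392100 to 11454636 UMIs in a CD8+ pool. Depth rose with the dose, from a median of 3107 UMIs per CD4+ cell with saline to 4416 and 5998 with lower and higher dose CSA, and from 4108 to 6122 and 7183 per CD8+ cell. The ribosomal protein genes took 15.1% to 15.4% of the UMIs of the saline CD4+ pools, 23.0% to 23.4% at 5 mg/kg and 20.4% to 21.6% at 50 mg/kg, with similar shares in CD8+ pools. The pools expressed T cell markers (3771 to 3971 summed CPM, counts scaled to a common library size, in CD4+ pools and 4615 to 7273 in CD8+ pools), Cd8a was at 0 in every CD4+ pool and Cd4 at 0 in every CD8+ pool, while Cd8b1, which encodes the other CD8 chain, was at 34.5 to 205 CPM in CD4+ clusters and at 1224 to 2451 in CD8+ clusters. Whether these genes were used to assign cells to a lineage was not examined, so the zeros are no measure of purity. Summed B cell markers reached 576 to 749 CPM in the CD8+ pools at 50 mg/kg, against 190 to 213 with saline, with Pax5 at 0. Erythroid markers reached 25.8 to 49.4 there, against 4.80 to 19.0. In the CD4+ pools B cell markers were at 284 to 336 at 50 mg/kg, against 200 to 215 with saline. Erythroid markers of these pools were at 28.0 to 37.6, against 3.39 to 15.8. A count of 218 cell barcodes occurred in 2 or more captures. The part of depth, ribosomal share, shared barcodes and these markers in the results was not tested.

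Glucose enters T cells through the facilitative transporters GLUT1 (Slc2a1) and GLUT3 (Slc2a3) and is broken down by the glycolytic enzymes to pyruvate, which lactate dehydrogenase converts to lactate. Activated T cells raise glucose uptake and aerobic glycolysis to supply growth and effector function, and T cells in graft-versus-host disease are known to depend on this route. HIF-1α, the protein of Hif1a, pairs with ARNT to bind the bases ACGTG or GCGTG in the regulatory DNA of many of these genes. Its protein level is set largely by oxygen-dependent breakdown, and in T cells TCR and mTOR signals raise Hif1a RNA and its translation. CSA blocks calcineurin, the phosphatase that activates NFAT transcription factors after TCR signaling.

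In the mouse genome (RefSeq genes, GRCm38.p6), Hif1a lies on the plus strand of chromosome 12 at chr12:73901324-73947554, Slc2a1 at chr4:119108745-119137330 (plus) and Slc2a3 at chr6:122727809-122802363 (minus). The enzymes are encoded by Hk2 at chr6:82725025-82774454 (minus), Pfkp at chr13:6579874-6649060 (minus), Aldoa at chr7:126795234-126800994 (minus), Gapdh at chr6:125161852-125166467 (minus), Pgk1 at chrX:106187100-106203699 (plus), Pkm at chr9:59656576-59679372 (plus) and Ldha at chr7:46842274-46855627 (plus). The 10 genes therefore lie on 7 chromosomes, with Slc2a3, Hk2 and Gapdh on chromosome 6 and Aldoa and Ldha on chromosome 7.

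The 250 bases before an annotated start were searched for ACGTG and GCGTG on both strands. Of the 10 genes, 9 had an entry in the promoter table (13 entries, since Aldoa, Pkm and Ldha have more than 1 start), and 11 entries, covering all 9 of those genes, held at least 1 match, against 38.6% of 32851 promoters of the same length. Only the Hif1a promoter and the first Ldha promoter held CACGTG, which contains ACGTG on both strands and was present in 6.02% of promoters. A match describes the letters of this window only, and no binding was measured. The promoters of Hif1a and Slc2a1, and those of Gapdh, Pgk1 and Ldha, whose RNA rose with CSA under the main scaling described next, are shown 5′ to 3′ on the gene's strand, ending 1 base before the start, with matches on either strand in capitals (chr12:73907617-73907866, chr4:119108495-119108744, chr6:125165774-125166023, chrX:106186850-106187099 and chr7:46845554-46845803 in this order).
Hif1a: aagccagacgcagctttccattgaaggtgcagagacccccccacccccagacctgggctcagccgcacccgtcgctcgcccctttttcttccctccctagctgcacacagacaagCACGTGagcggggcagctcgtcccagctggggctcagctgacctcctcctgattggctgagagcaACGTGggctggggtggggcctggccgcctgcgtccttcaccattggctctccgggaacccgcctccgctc
Slc2a1: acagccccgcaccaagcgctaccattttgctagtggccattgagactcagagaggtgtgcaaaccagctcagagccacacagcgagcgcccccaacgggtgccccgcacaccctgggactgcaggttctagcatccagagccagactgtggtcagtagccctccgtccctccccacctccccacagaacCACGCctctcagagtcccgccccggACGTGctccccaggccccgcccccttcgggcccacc
Gapdh: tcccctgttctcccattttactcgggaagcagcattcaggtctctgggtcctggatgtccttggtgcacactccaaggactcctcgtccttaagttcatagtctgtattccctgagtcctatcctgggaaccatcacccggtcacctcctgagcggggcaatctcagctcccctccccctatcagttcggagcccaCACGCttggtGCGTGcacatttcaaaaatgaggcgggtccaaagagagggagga
Pgk1: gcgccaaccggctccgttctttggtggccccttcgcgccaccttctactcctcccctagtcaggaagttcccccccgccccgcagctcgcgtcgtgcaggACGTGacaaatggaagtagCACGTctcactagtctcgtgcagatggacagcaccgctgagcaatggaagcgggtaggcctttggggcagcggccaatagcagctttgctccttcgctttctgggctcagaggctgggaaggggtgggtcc
Ldha: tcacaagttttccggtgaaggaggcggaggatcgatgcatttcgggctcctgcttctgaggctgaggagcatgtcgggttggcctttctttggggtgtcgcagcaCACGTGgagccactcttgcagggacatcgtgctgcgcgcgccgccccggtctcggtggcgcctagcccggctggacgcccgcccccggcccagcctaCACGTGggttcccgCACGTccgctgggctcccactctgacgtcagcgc
In the Ldha promoter the matches on the gene's strand began 144 and 47 bases before the start, in Slc2a1 36, in Pgk1 150 and in Gapdh 44.

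The first question was how the dose of CSA changed these genes over all cells of a lineage. Levels are CPM scaled by edgeR's trimmed mean of M-values (TMM CPM), and changes are log2 differences with their standard error from edgeR's quasi-likelihood test, adjusted over all genes tested (10568 in CD4+ and 10841 in CD8+ cells). The comparisons of both doses with saline share the saline pools. With lower dose CSA, 5 of the 10 genes were higher and 3 lower in CD4+ T cells, where 26.1% of all genes tested passed in the higher and 25.6% in the lower direction (51.7% in all). The counts were also 5 and 3 in CD8+ T cells (29.9% and 30.3% of all genes, 60.2% in all). With higher dose CSA 6 were higher and 4 lower in each lineage, at a background of 34.7% and 35.8% in CD4+ and 37.1% and 36.9% in CD8+ T cells. All 10 genes thus passed in either direction at 50 mg/kg where 70.5% (CD4+) and 74% (CD8+) of all genes did, and the median change of the 10 was 0.39 and 0.25, against -0.01 and 0.00 over all genes. Scaling by library size in place of TMM moved the median of all genes to -0.37 (5 mg/kg) and -0.45 (50 mg/kg) in CD4+ and to -0.43 and -0.53 in CD8+ T cells. Falls of members against saline became larger, and rises became smaller or changed direction, which is given beside the genes that turned. With that scaling 3 members were called higher and 4 lower at 50 mg/kg in CD4+ and 1 higher and 8 lower in CD8+ T cells. Most genes were then called lower: 6239 of 10568 in CD4+ (1599 higher) and 6794 of 10841 in CD8+ T cells (1690 higher).

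**Figure D1:**
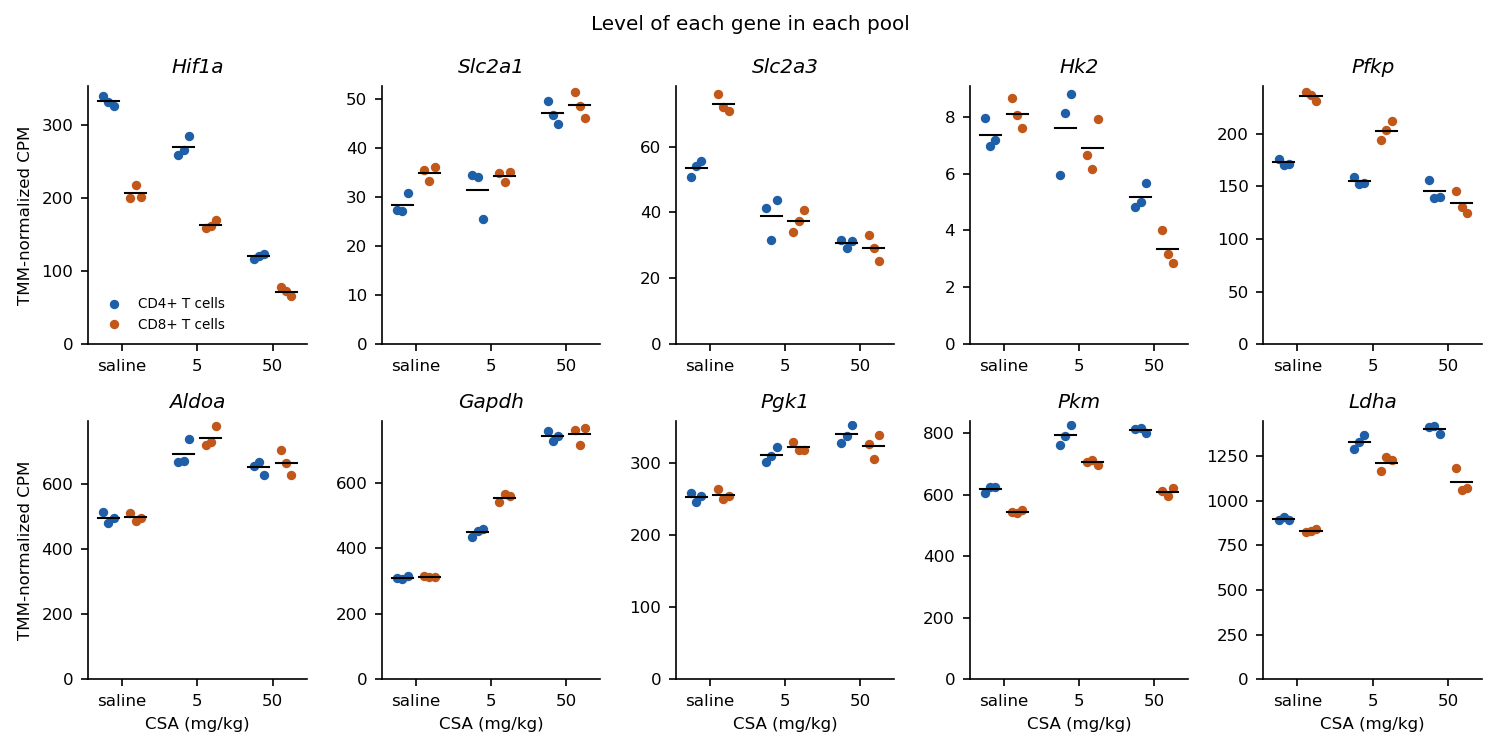
Level of each of the 10 genes (TMM CPM, 1 panel per gene, axes from 0) in every pool by treatment group, CD4+ and CD8+ T cells shown apart; points are pools and lines are group means (n = 3 pools). Hif1a falls stepwise in both lineages (from a mean of 332 to 120.3 in CD4+ and from 206 to 71.9 in CD8+ T cells) while Gapdh rises (309 to 744 and 312 to 748).

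Hif1a, the oxygen-regulated subunit of HIF-1, fell with each dose step. In CD4+ T cells it was at 339, 331 and 325 TMM CPM in the 3 saline pools, at 258, 266 and 285 with lower dose CSA and at 117, 120.0 and 124 with higher dose CSA. In CD8+ T cells the levels were 199.9, 217 and 201 with saline, 159, 161 and 169 with the lower dose and 78.4, 72.1 and 65.4 with the higher dose. In both lineages every pool of the higher dose lay below every pool of the lower dose, and those below every saline pool. The change with lower dose CSA was -0.30 ± 0.04 in CD4+ (adjusted p = 9.25e-06) and -0.33 ± 0.06 in CD8+ T cells (adjusted p = 6.05e-05). With higher dose CSA it was -1.46 ± 0.05, a level 2.76-fold lower (adjusted p = 1.31e-16), and -1.52 ± 0.06, 2.88-fold lower (adjusted p = 1.33e-13). The further step from 5 to 50 mg/kg was -1.17 in CD4+ and -1.19 in CD8+ T cells. The fall with the higher dose was close in size in cells outside the cycling clusters (-1.49 and -1.60) and in cells with 3000 to 8000 UMIs (-1.51 and -1.55), and larger under library size scaling (-1.90 and -2.05).

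Slc2a1, which encodes the basal and activation-induced transporter GLUT1, was higher with the higher dose under TMM scaling. Its level in CD4+ T cells was 27.4, 27.3 and 30.8 TMM CPM with saline, 34.6, 34.1 and 25.6 with lower dose CSA and 49.6, 46.7 and 45.1 with higher dose CSA. Among CD8+ T cells it was 35.6, 33.4 and 36.1, then 35.0, 33.1 and 35.2, then 51.5, 48.7 and 46.3. The lower dose pools overlapped the saline pools in both lineages, with a change of 0.12 ± 0.11 (adjusted p = 0.389) in CD4+ and -0.02 ± 0.07 (adjusted p = 0.82) in CD8+ T cells, although in CD4+ T cells the change was 0.27 (adjusted p = 0.0405) without CSA 5 mg/kg pool 3. Library size scaling turned the CD4+ change to -0.24 and made the CD8+ change -0.45, called lower (adjusted p = 4.41e-05). The higher dose pools lay above all others, with a change of 0.72 ± 0.10 in CD4+ (adjusted p = 9.89e-07) and 0.48 ± 0.07 in CD8+ T cells (adjusted p = 5.12e-06), a rise that library size scaling left at 0.28 in CD4+ and turned to -0.05, not called, in CD8+ T cells (adjusted p = 0.472). These levels rest on 517 Slc2a1 UMIs with saline and 870 with the higher dose in CD4+ and on 971 and 1191 in CD8+ T cells.

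Slc2a3, the gene of the high-affinity transporter GLUT3, fell. CD4+ T cells had levels of 50.7, 54.0 and 55.6 TMM CPM with saline, 41.3, 31.6 and 43.9 with lower dose CSA and 31.5, 29.4 and 31.2 with higher dose CSA. For CD8+ T cells it was 75.9, 72.0 and 70.8, then 34.0, 37.3 and 40.7, then 33.3, 29.2 and 25.1. All treated pools lay below all saline pools in each lineage. The fall in CD4+ T cells was -0.45 ± 0.09 with the lower dose (adjusted p = 0.000367) and -0.80 ± 0.09 with the higher dose (adjusted p = 1.13e-07). It was -0.95 ± 0.08 (adjusted p = 2.65e-08) and -1.33 ± 0.08 (adjusted p = 8.27e-11) in CD8+ T cells, where most of the fall was already present with the lower dose. Between the doses it fell by a further 0.35 (adjusted p = 0.00815) and 0.39 (adjusted p = 0.00375). This step was not called outside the cycling clusters (0.00 in CD4+, adjusted p = 0.993, and -0.14 in CD8+ T cells, adjusted p = 0.416) or among cells with 3000 to 8000 UMIs (0.14, adjusted p = 0.489, and -0.22, adjusted p = 0.204). In CD4+ T cells it was also lost without CSA 5 mg/kg pool 3 (-0.24, adjusted p = 0.104).

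Hk2, the inducible hexokinase that traps glucose in activated cells, had the fewest UMIs of the members. It was at 7.96, 6.97 and 7.17 TMM CPM in the saline CD4+ pools, at 5.94, 8.14 and 8.78 with lower dose CSA and at 4.82, 5.01 and 5.67 with higher dose CSA. Its levels in CD8+ T cells were 8.66, 8.04 and 7.60, then 6.66, 6.15 and 7.90, then 4.02, 3.19 and 2.86. Lower dose pools overlapped saline pools in both lineages (0.08 ± 0.19 in CD4+, which library size scaling turned to -0.28, and -0.20 ± 0.17 in CD8+ T cells, which it made -0.63, called lower with adjusted p = 0.00269), and higher dose pools lay below all saline pools. The change with the higher dose was -1.28 ± 0.18 in CD8+ T cells (adjusted p = 3.84e-06), and -0.80 outside the cycling clusters (adjusted p = 0.04996). With 132 UMIs in the saline and 96 in the higher dose sum of CD4+ T cells, it was -0.50 ± 0.20 there (adjusted p = 0.0291), and this call was lost with DESeq2 (adjusted p = 0.125), outside the cycling clusters (adjusted p = 0.0585) and without CSA 50 mg/kg pool 1 or 2 or saline pool 1 or 3 (adjusted p = 0.0756, 0.0674, 0.0775 and 0.0518).

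Pfkp, the platelet-type phosphofructokinase at the main control step of glycolysis, was lower with CSA. Its level in CD8+ T cells was 239.7, 237 and 231 TMM CPM with saline, 194, 203 and 212 with lower dose CSA and 146, 131 and 125 with higher dose CSA. Among CD4+ T cells it was 176, 171 and 172, then 159, 152 and 153, then 157, 139 and 140.0. All treated pools lay below the saline pools, and among CD8+ T cells the doses were also apart from each other. The change in CD8+ T cells was -0.21 ± 0.05 (adjusted p = 0.00214) with the lower and -0.82 ± 0.05 (adjusted p = 1.48e-10) with the higher dose, and in CD4+ T cells -0.25 ± 0.05 (adjusted p = 0.000142) with the higher dose. The change of -0.16 in CD4+ T cells with the lower dose passed the test, but not without CSA 5 mg/kg pool 2 (adjusted p = 0.0515).

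**Figure D2:**
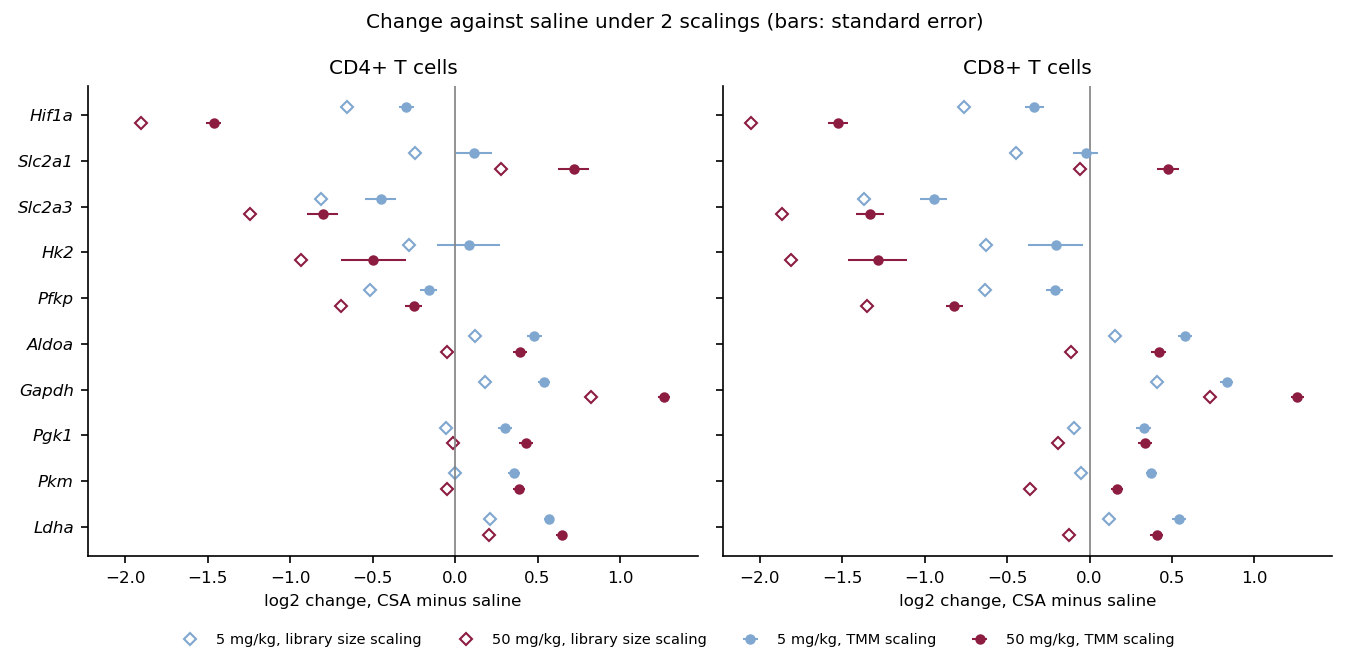
Change of each gene against saline (x axis, log2) with lower and higher dose CSA in CD4+ and CD8+ T cells (n = 3 pools per group); filled points are TMM-scaled with standard errors of edgeR's fit as bars, and open diamonds are library size scaled. Hif1a, Slc2a3 and Pfkp lie below 0 and Gapdh lies farthest above it (1.27 and 1.26 at 50 mg/kg); under library size scaling Pgk1 is below 0 in all 4 comparisons, Pkm below 0 in 3 (0.00 in CD4+ T cells at 5 mg/kg), Aldoa in both lineages at 50 mg/kg, Slc2a1 in CD4+ T cells at 5 mg/kg and in CD8+ T cells at both doses, Hk2 in all 4, and Ldha in CD8+ T cells at 50 mg/kg.

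Aldoa, the aldolase that splits fructose bisphosphate, was higher with both doses. Its level in CD4+ T cells was 513, 478 and 496 TMM CPM with saline, 667, 668 and 737 with lower dose CSA and 654, 668 and 627 with higher dose CSA. For CD8+ T cells it was 511, 485 and 495, then 717, 729 and 778, then 704, 663 and 626. Every treated pool lay above every saline pool. The rise with the lower dose was 0.48 ± 0.04 (adjusted p = 7.26e-09) in CD4+ and 0.58 (adjusted p = 4.74e-09) in CD8+ T cells. With the higher dose it was 0.39 ± 0.04 (adjusted p = 5.18e-08) and 0.42 (adjusted p = 1.54e-07), and library size scaling turned it to -0.05 and -0.11. That scaling left 0.12 and 0.15 with the lower dose. Among cells with 3000 to 8000 UMIs the rise with the higher dose was 0.22 in CD4+ and 0.37 in CD8+ T cells.

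Gapdh, which encodes the dehydrogenase that yields the pathway's NADH, rose most of the members with the higher dose. CD4+ T cells had levels of 308, 304 and 316 TMM CPM with saline, 435, 454 and 458 with lower dose CSA and 758, 729 and 744 with higher dose CSA. Among CD8+ T cells it was 314, 312 and 311, then 541, 564 and 559.7, then 761, 716 and 767. The 3 groups did not overlap in either lineage and were in dose order. The rise with the lower dose was 0.54 ± 0.04 (adjusted p = 1.66e-10) in CD4+ and 0.83 ± 0.04 (adjusted p = 3.17e-12) in CD8+ T cells. With the higher dose it was 1.27 ± 0.04, or 2.40-fold (adjusted p = 3.61e-17), and 1.26 ± 0.04, also 2.40-fold (adjusted p = 4.24e-15). Under library size scaling this rise was 0.83 and 0.73, and Gapdh was then the only member called higher in both lineages. With the lower dose that scaling left 0.18 and 0.41. Gapdh is often used as a reference of constant expression.

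Pgk1, the kinase of the first ATP-forming step, rose by less. Its level in CD4+ T cells was 259, 246 and 254 TMM CPM with saline, 302, 310.5 and 322 with lower dose CSA and 329, 338 and 354 with higher dose CSA. For CD8+ T cells it was 265, 250.02 and 254, then 329, 319 and 318, then 327, 306 and 339, with both doses above saline and overlapping each other. The rise of 0.30 ± 0.04 (adjusted p = 5.75e-06) and 0.43 ± 0.04 (adjusted p = 1.10e-08) in CD4+ T cells became -0.06 and -0.01 under library size scaling. That of 0.33 (adjusted p = 4.52e-06) and 0.34 (adjusted p = 1.35e-06) in CD8+ T cells became -0.10 and -0.19. Among cells with 3000 to 8000 UMIs the rise was 0.16 and 0.13 in CD4+ and 0.11 (adjusted p = 0.0876, not called) and 0.13 in CD8+ T cells.

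Pkm, whose PKM2 form is the pyruvate kinase of proliferating cells, rose in both lineages with a different dose order. Its level in CD4+ T cells was 606, 624 and 624 TMM CPM with saline, 763, 790.2 and 825 with lower dose CSA and 813, 815 and 799 with higher dose CSA. Among CD8+ T cells it was 543, 538 and 548, then 706, 713 and 695, then 612, 595 and 622. In CD8+ T cells the lower dose pools lay above the higher dose pools, and those above the saline pools. The rise with the lower dose was 0.36 ± 0.04 (adjusted p = 3.76e-08) in CD4+ and 0.38 (adjusted p = 4.18e-08) in CD8+ T cells, and under library size scaling 0.00 and -0.05. With the higher dose it was 0.39 ± 0.04 (adjusted p = 3.55e-09) and 0.17 ± 0.03 (adjusted p = 0.00028), and became -0.05 and -0.36 under library size scaling. Among cells with 3000 to 8000 UMIs the change with the higher dose was 0.09 (adjusted p = 0.083) and -0.07 (adjusted p = 0.136), and among noncycling CD8+ T cells 0.08 (adjusted p = 0.135).

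Ldha, the subunit of lactate dehydrogenase that favors lactate production, was higher with both doses. Its level in CD4+ T cells was 892, 908 and 890.2 TMM CPM with saline, 1293, 1329 and 1368 with lower dose CSA and 1414, 1419.6 and 1377 with higher dose CSA. Levels in CD8+ T cells were 828, 832 and 840.3, then 1168, 1245 and 1232, then 1183, 1059 and 1073. The treated pools lay above all saline pools, and among CD8+ T cells both doses overlapped each other. The rise in CD4+ T cells was 0.57 ± 0.03 (adjusted p = 4.76e-12) and 0.65 ± 0.03 (adjusted p = 1.75e-13). The rise in CD8+ T cells was 0.54 (adjusted p = 3.98e-09) with the lower and 0.41 ± 0.04 (adjusted p = 8.76e-08) with the higher dose, and library size scaling turned the latter to -0.12 while it left 0.21 in CD4+ T cells. With the lower dose it left 0.21 in CD4+ and 0.12 in CD8+ T cells.

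Between the doses, 3 of the 10 genes were higher at 50 than at 5 mg/kg in CD4+ T cells (Slc2a1, Gapdh and Pgk1) and 3 lower (Hif1a, Slc2a3 and Hk2), where 19.9% and 21.3% of all genes passed in these directions, 41.2% in all. Of CD8+ members 2 were higher (Slc2a1 and Gapdh) and 7 lower, at a background of 20% and 21%, 41% in all. Aldoa (-0.16, adjusted p = 0.00846), Pkm (-0.21) and Ldha (-0.14, adjusted p = 0.0137) were below their lower dose level in CD8+ T cells given the higher dose. Only Pkm remained called outside the cycling clusters (-0.29, against -0.05 for Aldoa, adjusted p = 0.522, and -0.03 for Ldha, adjusted p = 0.713) and among cells with 3000 to 8000 UMIs (-0.28, against -0.10, adjusted p = 0.161, and -0.11, adjusted p = 0.0739). The corresponding changes in CD4+ T cells were -0.09, 0.03 and 0.08 and did not pass. Under library size scaling they were -0.17 (called lower, adjusted p = 0.00179), -0.05 and 0.00, and Ldha was called higher outside the cycling clusters (0.14, adjusted p = 0.00321) and with DESeq2 (adjusted p = 0.0408). Among CD4+ cells with 3000 to 8000 UMIs, Aldoa (-0.18, adjusted p = 0.00765) and Pkm (-0.12, adjusted p = 0.0454) were called lower. Both Hk2 in CD4+ T cells (-0.58, adjusted p = 0.0273, and 0.14 with DESeq2) and Pgk1 (0.13, adjusted p = 0.0207) were near the threshold, and each call was lost when some single pools were left out.

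Aldoa, Gapdh, Pgk1 and Ldha have copies of their sequence named in the GENCODE annotation (2, 2, 3 and 2 copies), none of which is in the count table. Reads that match such copies are therefore an uncertainty of these 4 levels. Counts summed per pool do not separate fewer cells that express a gene from less RNA per cell. The deposited counts per cell would allow this, but the share of cells with a UMI of each gene is not given here. The next comparison follows the genes, again as sums, within the clusters that the study defined on these same cells.

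Levels across clusters of saline-treated cells are plain CPM per pool and cluster, without TMM scaling and without a test, because the study made its clusters from these same cells. Hif1a differed 5.50-fold among CD4+ clusters with at least 2 saline pools of 10 cells. It was highest in C4 (641 ± 55.9, SD), the cluster with high Tcf7 and Cxcr5, followed by C7 with high Ifng (596 ± 50.9), the Isg15-high C10 (565 ± 167) and the cycling C6 (436 ± 31.8), and lowest in C1 (177 ± 25.7) and in C9 (116 ± 35.9), where Ccr7 was high. Of 10 pairs of neighbors in this order, 3 were apart by more than their spread (C5 above C3, C3 above C1 and C1 above C9). Among CD8+ T cells the order ran from C8, with high Ifng (421 ± 63.7), and C5, with high Tcf7 (368 ± 11.7), through the cycling C4 (304 ± 26.2) to C7, with high Ccr7 (77.3 ± 20.9), a 5.45-fold range in which 5 of 8 neighbors were apart.

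Slc2a3 had a different order, highest in the effector clusters C0 of both lineages (127 ± 5.55 CPM in CD4+ and 135 ± 16.2 in CD8+ T cells) and in CD8+ C8 (140.1 ± 33.1), and lowest in CD4+ C2 (16.9 ± 4.94) and CD8+ C7 (7.60 ± 7.81, from 3 UMIs). Slc2a1 was close to flat across CD4+ clusters, from 44.4 ± 14.9 in C9 to 24.0 ± 10.1 in C8 with 0 of 10 neighbors apart, and ranged in CD8+ T cells from 52.0 ± 1.55 in C4 to 11.4 ± 14.0 in C7 (5 UMIs). Hk2 stood out in CD4+ C7 (37.2 ± 8.44), the next cluster being C6 (12.6 ± 3.56). Each enzyme had its highest level in a cycling or an Ifng-high cluster, but not every cycling cluster was high. Aldoa in the cycling CD4+ C5 (525 ± 41.2) and CD8+ C3 (558 ± 32.7) was below C1 of the same lineage (621 ± 45.6 and 644 ± 65.2). Pfkp was highest in the cycling C6 of CD4+ (269 ± 11.6) and C4 of CD8+ T cells (386 ± 13.4). Pkm was highest in CD4+ C3 (1007 ± 20.7) and Ldha in CD4+ C7 (1552 ± 144), both with C9 lowest (468 ± 55.4 and 784 ± 85.3). Neither was apart from the next cluster by more than the spread (Pkm 971 ± 148 in C7, Ldha 1493 ± 15.0 in C3). Aldoa was highest in C7 of CD4+ (900.1 ± 52.3) and C8 of CD8+ T cells (788 ± 93.7), and Gapdh in the cycling C3 of CD4+ (524 ± 40.3) and C2 of CD8+ T cells (500.3 ± 14.9).

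**Figure D3:**
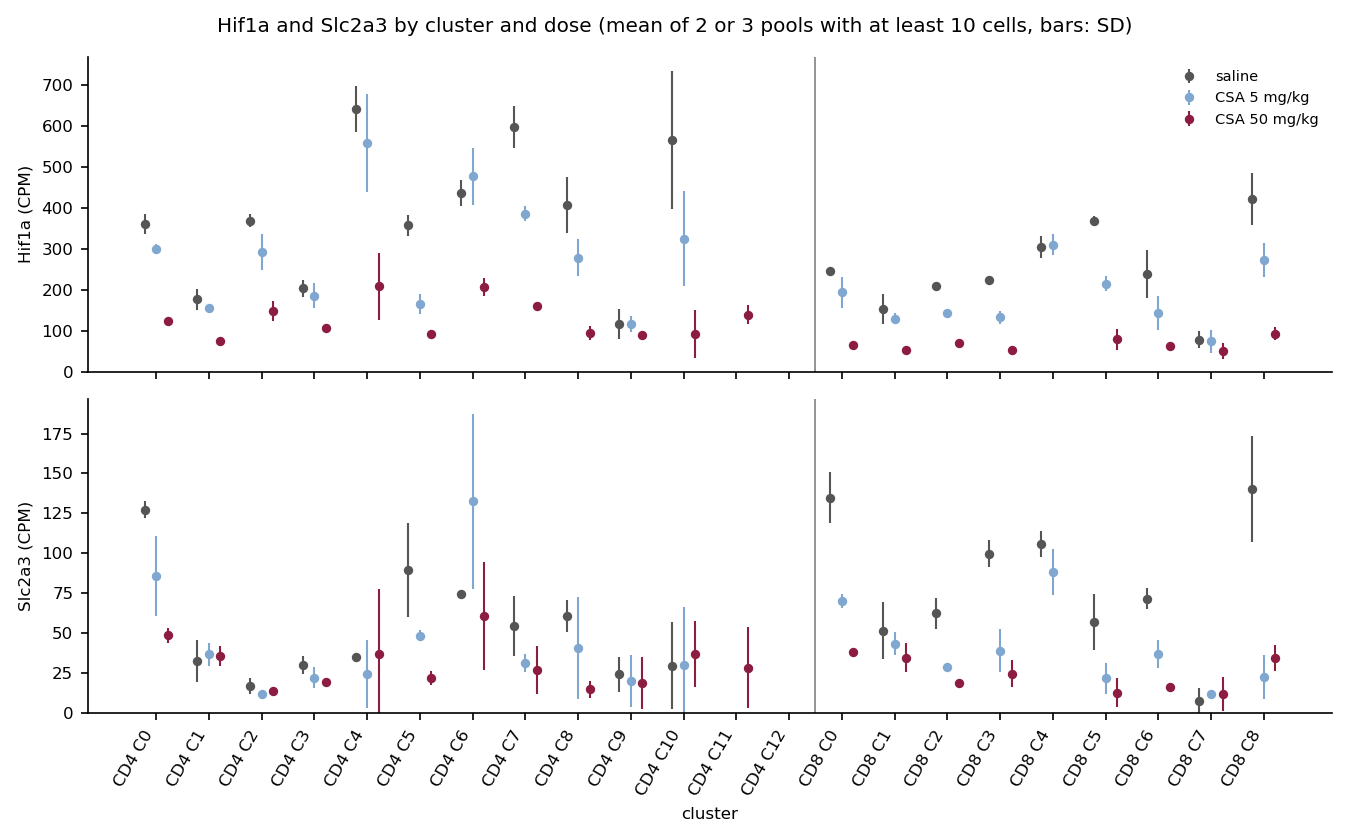
Level of Hif1a (top) and Slc2a3 (bottom) in each CD4+ and CD8+ cluster by treatment group, as plain CPM on axes from 0; points are means of 2 or 3 pools with at least 10 cells and bars are SD. Hif1a with saline is highest in CD4+ C4, C7 and C10 and in CD8+ C8 and C5, and its points at 50 mg/kg lie below the saline points in each cluster with both, while Slc2a3 with saline is highest in C0 of both lineages and in CD8+ C8.

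Patterns were compared by Pearson's r of log2(CPM + 1) over the 22 clusters of both lineages, each with at least 1 saline pool of 10 cells. Pgk1 and Pkm had the closest pattern among the members (r = 0.909), followed by Pgk1 and Ldha (0.858), Pkm and Ldha (0.795) and Gapdh and Pgk1 (0.706). Hif1a had an r of 0.648 with Pkm, 0.296 with Ldha, 0.222 with Slc2a3, 0.094 with Gapdh and -0.297 with Slc2a1. All of these values include CD4+ C11 and C12, each with 1 saline pool, and are not given without them. In C11 Hif1a was at 931 CPM, its highest level, with 0 Slc2a1 counts, and in C12 Slc2a3 was at 0. The sign of the r between Hif1a and Slc2a1 is therefore not settled. Among 6514 genes compared, those most like Hif1a were Ikzf2 (0.946), Nfatc1 (0.930), Twsg1 (0.925), Icos (0.917) and Ksr1 (0.890), of which Ikzf2, Nfatc1, Icos and Ksr1 were also among the nearest 5 when only the 20 clusters with at least 2 saline pools were kept, a setting chosen after the data were seen. Those most like Slc2a1 were Cic, Gapvd1, Foxn2, C2cd3 and Hsdl2 (0.978 to 0.968), but this rested on CD4+ C11, a cluster of 10 saline cells and 35458 UMIs in 1 pool with 0 Slc2a1 counts, which allows up to 84.6 CPM, and over the 20 clusters the nearest were Aagab, Gse1, Mfsd14b, Gapvd1 and Taok3 (0.886 to 0.862). Clusters share their libraries and differ in depth, so these correlations are descriptions.

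The dose comparison was then made within clusters, on sums of the counts of each pool and cluster with at least 10 cells, where at least 2 pools of each group had such sums. This held for 11 CD4+ clusters and for 9 (5 mg/kg) and 8 (50 mg/kg) CD8+ clusters. CD8+ C4, a cycling cluster of 1015 saline cells, kept 81 cells with the lower dose and 20 with the higher dose, for which it was not tested. With the higher dose, 25 of 92 pairs of a member and a CD4+ cluster were higher and 18 lower, where 14.8% and 15.4% of all pairs of a gene and a cluster passed (30.2% in all). Of 70 such pairs in CD8+ clusters, 31 were higher and 21 lower, at a background of 21.3% and 22.1% (43.4% in all). With the lower dose the counts were 20 and 7 of 92 in CD4+ (7.49% and 5.53% of all pairs, 13% in all) and 23 and 8 of 80 in CD8+ clusters (11% and 9.46%, 20.4% in all). From 5 to 50 mg/kg they were 12 and 17 of 92 (6.06% and 7.17%, 13.2% in all) and 9 and 21 of 70 (6.96% and 7.44%, 14.4% in all). Under library size scaling the higher counts against saline at 50 mg/kg fell to 13 and 7, and the lower counts rose to 28 and 34.

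Hif1a was lower with the higher dose in 9 of 11 CD4+ and 7 of 8 CD8+ clusters. In the CD4+ effector cluster C0 it went from 360.0 ± 23.4 CPM with saline to 299 ± 11.8 with the lower and 122 ± 7.87 with the higher dose. For the Ifng-high C7 the values were 596 ± 50.9, 385 ± 18.3 and 161 ± 4.94, and for the Tcf7-high C4 641 ± 55.9, 557 ± 119 and 208 ± 81.8 (24 UMIs in 45 cells with the higher dose). CD8+ C0 went from 245 ± 4.83 to 193 ± 38.5 and 63.6 ± 3.84, and CD8+ C5 from 368 ± 11.7 to 214 ± 18.9 and 78.8 ± 25.7. The TMM-scaled change within clusters with the higher dose ranged from -2.33 (C10) to -0.26 (C9) in CD4+ T cells, with a median of -1.17, and from -1.91 (C5) to -0.69 (C7) in CD8+ T cells, with a median of -1.51. The clusters with high Ccr7 started from the lowest levels and did not pass, with 116 ± 35.9 with saline and 88.8 ± 10.96 with the higher dose in CD4+ C9 (adjusted p = 0.658) and 77.3 ± 20.9 and 50.8 ± 19.8 in CD8+ C7 (adjusted p = 0.437). Neither did CD4+ C6 (-1.04, adjusted p = 0.0564), which had 27 cells in 2 pools at 50 mg/kg. With the lower dose Hif1a was called lower in CD4+ C5 (-0.75) and C7 (-0.34) and in CD8+ C2, C3 and C5. In CD4+ C0 its TMM-scaled change with the lower dose was -0.00, and -0.28 under library size scaling.

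**Figure D4:**
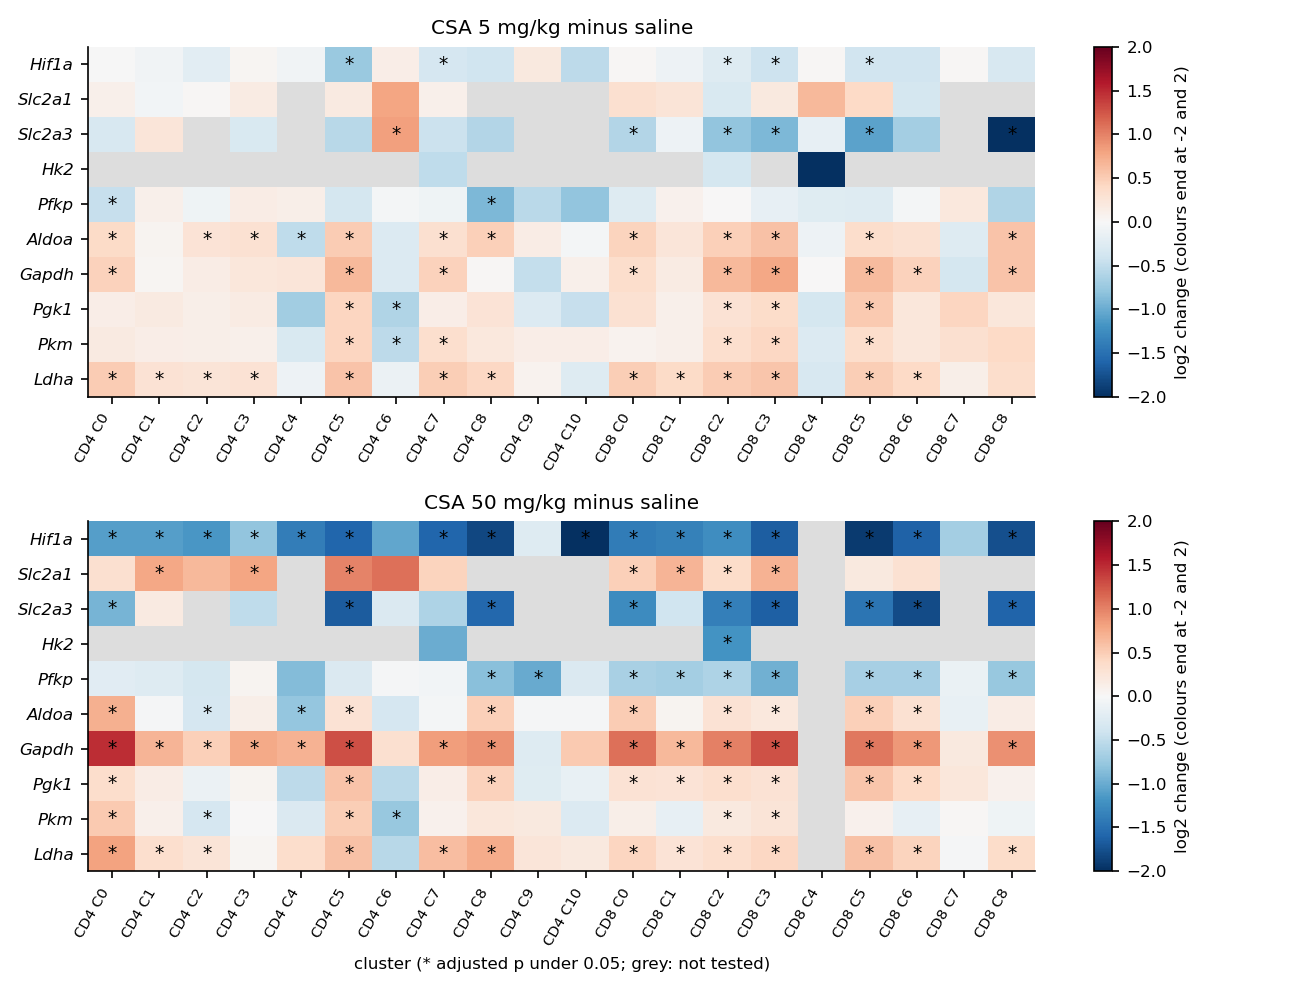
Change of each gene within each cluster (log2, TMM-scaled, saline pools shared by both doses) at 5 and 50 mg/kg against saline in CD4+ and CD8+ T cells, with called pairs (edgeR, adjusted p under 0.05) marked by a star and untested pairs in grey. Hif1a is called lower in 9 of 11 CD4+ and 7 of 8 CD8+ clusters at 50 mg/kg; under library size scaling the pairs called higher at 50 mg/kg fall from 25 to 13 in CD4+ and from 31 to 7 in CD8+ clusters.

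Among the transporters, Slc2a3 was lower with the higher dose in 3 of the 7 CD4+ clusters in which it could be tested (C0, C5 and C8) and in 6 of 7 CD8+ clusters. For C0 its level was 127 CPM with saline, 85.9 with the lower and 48.8 with the higher dose in CD4+ and 135, 70.0 and 38.2 in CD8+ T cells, and in CD8+ C8 it was 140.1 ± 33.1 with saline, 22.7 ± 13.9 with the lower (11 UMIs in 2 pools) and 34.4 ± 8.25 with the higher dose. The cycling CD4+ C6 was an exception with the lower dose, where Slc2a3 was higher (74.4 with saline and 132 ± 54.7, TMM-scaled change 0.82, adjusted p = 0.0207). Slc2a1 was higher with the higher dose in C1, C3 and C5 of 7 CD4+ clusters and in C0 to C3 of 6 CD8+ clusters, 0 of which were called under library size scaling, and in 0 clusters with the lower dose.

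Of the enzymes, Gapdh was higher with the higher dose in 8 of 11 CD4+ and 7 of 8 CD8+ clusters (7 and 7 under library size scaling). In CD4+ C0 it went from 307 to 355 and 623 ± 38.1 in plain CPM, and in CD8+ C3 from 396 to 534 and 702 ± 8.95. The TMM-scaled log2 changes of Gapdh with the higher dose were 1.47 and 1.28, larger than the plain CPM give. Changes in brackets below are TMM-scaled too. Ldha was higher in 6 of 11 CD4+ clusters (C0, C1, C2, C5, C7 and C8) and 7 of 8 CD8+ clusters, and in 5 and 0 under library size scaling. Pfkp was lower in 7 of 8 CD8+ clusters and in C8 and C9 of 11 CD4+ clusters. Pgk1 was higher in C0, C5 and C8 of 11 CD4+ and in 6 of 8 CD8+ clusters, and in 0 of either lineage under library size scaling. Aldoa and Pkm moved both ways among the CD4+ clusters. Aldoa was higher in C0 (0.70), C5 (0.29) and C8 (0.48) and lower in C2 (-0.34) and C4 (-0.77), and under library size scaling higher in 1 and lower in 3. Pkm was higher in C0 (0.53) and C5 (0.50) and lower in C2 (-0.34) and C6 (-0.75), and under library size scaling higher in 0 and lower in 3. Among CD8+ clusters Aldoa was higher in 5 of 8 and Pkm in C2 and C3, against 0 higher and 2 and 7 lower under library size scaling. Hk2 could be tested in few clusters, and was lower in the cycling CD8+ C2 (-1.19, adjusted p = 0.00508) while its change in CD4+ C7 was -0.99 (adjusted p = 0.119).

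The lineages were then compared over the same pools, with the pool as a block. With saline, 6 of the 10 genes were higher and 2 lower in CD8+ than in CD4+ T cells, where 21.6% and 18.5% of 11177 genes passed (40.1% in all). Hif1a was lower in CD8+ T cells (-0.60 ± 0.04, adjusted p = 2.76e-11), and Slc2a3 (0.53 ± 0.07, adjusted p = 1.05e-06), Pfkp (0.53 ± 0.04, adjusted p = 6.85e-11) and Slc2a1 (0.38 ± 0.08, adjusted p = 0.000603, but 0.064 with DESeq2) were higher. The differences of Aldoa (0.09), Gapdh (0.10), Pgk1 (0.10) and Pkm (-0.10) were small, and those of Aldoa, Gapdh and Pgk1 were lost with DESeq2. The share of cells in cycling clusters was 21.7% in CD4+ and 53.3% in CD8+ T cells with saline, and the part of that difference was tested only by leaving those clusters out, which kept 2 members called higher (Slc2a3 and Pfkp) and made 3 lower, Hif1a, Pkm (-0.25, adjusted p = 2.19e-06) and Ldha (-0.22, adjusted p = 5.66e-06, against -0.02 over all cells).

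Whether the dose changed a gene differently in both lineages was tested as the CD8+ change minus the CD4+ change. At 5 mg/kg, Slc2a3 fell more (-0.53 ± 0.12, adjusted p = 0.0109) and Gapdh rose more (0.26 ± 0.05, adjusted p = 0.00168) in CD8+ T cells, 1 lower and 1 higher where 1.52% and 2.05% of all genes passed (3.57% in all). At 50 mg/kg, 5 of 10 genes had the more negative change in CD8+ T cells, against 10.5% of all genes, and 0 the more positive one, against 8.83% (19.3% in all). These were Pfkp (-0.60 ± 0.06, adjusted p = 9.46e-08), Slc2a3 (-0.56 ± 0.12, adjusted p = 0.00109), Ldha (-0.27 ± 0.04, adjusted p = 4.92e-05), Pkm (-0.25 ± 0.05, adjusted p = 0.000227) and Hk2 (-0.82 ± 0.26, adjusted p = 0.0311). For Hif1a the difference was -0.10 ± 0.07 (adjusted p = 0.39), with an interval of 2 standard errors either side from -0.24 to 0.05. With DESeq2 the differences of Pfkp, Pkm and Ldha at 50 mg/kg and of Gapdh at 5 mg/kg were called, while those of Slc2a3 (adjusted p = 0.092) and Hk2 (0.521) at 50 mg/kg were not. For Slc2a3 at 5 mg/kg DESeq2 gave no adjusted p. Outside the cycling clusters the difference of Hk2 was -0.21, that of Gapdh at 5 mg/kg 0.07 and that of Slc2a3 at 5 mg/kg -0.44, none of them called, and that of Pfkp at 50 mg/kg was -0.33 (adjusted p = 0.00945). The Hk2 call was also lost when any 1 of 5 pools was left out (adjusted p = 0.0534 to 0.194).

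**Figure D5:**
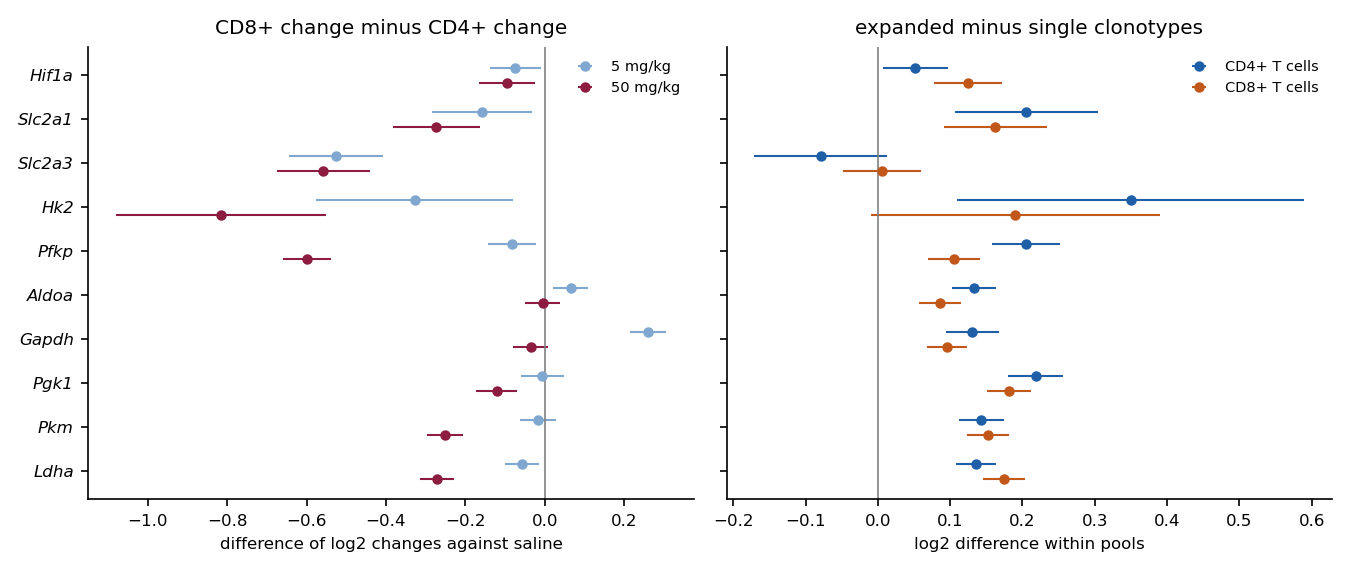
Left, CD8+ change minus CD4+ change of each gene (log2, bars are standard errors) at 5 and 50 mg/kg against saline; right, difference of each gene between cells of expanded and of single clonotypes in CD4+ and CD8+ T cells (log2, bars are standard errors, 9 pools). Pfkp has a difference of -0.60 at 50 mg/kg between the lineages, and Pgk1 is 0.22 and 0.18 higher in cells of expanded clonotypes.

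Cells whose TCR clonotype occurred in at least 2 cells of the same pool were compared with cells of single clonotypes over all 9 pools. Among CD4+ T cells (1701 against 6283 cells) 6 of the 10 genes were higher and 0 lower in expanded cells, where 8.95% of all genes were higher and 8.42% lower (17.4% in all). These were Pgk1 (0.22 ± 0.04, adjusted p = 0.000128), Pfkp (0.21 ± 0.05, adjusted p = 0.00214), Ldha (0.14, adjusted p = 0.000679), Pkm (0.14, adjusted p = 0.00144), Aldoa (0.13, adjusted p = 0.00241) and Gapdh (0.13, adjusted p = 0.0108). Aldoa, Pfkp and Pgk1 were higher in 9 of 9 pools and Gapdh, Ldha and Pkm in 8. Among CD8+ T cells (2662 against 6341 cells) 5 were higher, against 6.59% of all genes, and 0 lower, against 7.1% (13.7% in all). These were Pgk1 (0.18 ± 0.03, adjusted p = 0.000147), Ldha (0.17, adjusted p = 0.000131), Pkm (0.15, adjusted p = 0.000614), Gapdh (0.10, adjusted p = 0.0195) and Aldoa (0.09, adjusted p = 0.0482). Hif1a differed by 0.05 (adjusted p = 0.488) and 0.12 (adjusted p = 0.0845), and neither transporter was called. Under library size scaling Hif1a (0.14, adjusted p = 0.0427 by edgeR) and Pfkp (0.12, adjusted p = 0.0231) were also called higher in expanded CD8+ T cells. Outside the cycling clusters Aldoa, Pgk1, Pkm and Ldha remained called in CD4+ T cells and 0 members in CD8+ T cells, and with expansion set at 5 cells 0 and 2 members were called.

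TEa cells were compared with the other CD4+ T cells of their pool over the 7 pools with at least 10 TEa cells (264 against 8015 cells). None of the 10 genes was called by edgeR, where 2.66% of all genes were (0.835% higher and 1.83% lower), and 1 had an unadjusted p under 0.05. This was Slc2a1 (-0.63 ± 0.27, unadjusted p = 0.0196 and adjusted p = 0.295 by edgeR), with an interval of 2 standard errors either side from -1.16 to -0.09. It rested on 30 Slc2a1 UMIs in TEa cells, and of the higher dose only pool 1, with 11 TEa cells, was included. The interval is not adjusted for the choice of this gene among the 10, so no difference is read from it. Hif1a differed by 0.17 (adjusted p = 0.482).

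Other genes of the pathway were read from fixed lists to place the members, all at 50 mg/kg against saline. Over all genes tested, 34.7% were higher and 35.8% lower in CD4+ T cells, and 37.1% and 36.9% in CD8+ T cells. Under library size scaling 1599 genes were higher and 6239 lower of 10568 in CD4+ T cells, and 1690 and 6794 of 10841 in CD8+ T cells. Of 17 other glycolysis enzymes tested in CD4+ T cells, 5 were higher and 6 lower (median change -0.09), and of 16 in CD8+ T cells 6 were higher and 8 lower (median -0.29). The counts were 2 and 9 and 3 and 10 under library size scaling. Eno1, the main enolase, rose in CD4+ T cells from 179.9 to 354 TMM CPM (0.97 ± 0.05). Pfkfb4, one of the enzymes that set fructose 2,6-bisphosphate, fell from 2.21 to 0.48 (-2.17 ± 0.44), and Ldhb, the other lactate dehydrogenase subunit, fell from 6.51 to 3.05 (-1.03). In CD8+ T cells Hk1, the constitutive hexokinase, fell from 97.5 to 52.9 (-0.89 ± 0.06) and Pfkfb3, the inducible member of the same family as Pfkfb4, from 16.5 to 9.40 (-0.80), while Eno3 rose from 8.02 to 19.3 (1.26).

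Among other transporters of glucose and lactate, 1 of 6 was higher and 2 lower in CD4+ T cells (median -0.27) and 2 of 5 were higher and 2 lower in CD8+ T cells (median 0.25). Under library size scaling 1 was higher and 4 lower in CD4+ and 1 higher and 2 lower in CD8+ T cells. Slc2a6, a lysosomal member of the GLUT family, fell in CD4+ T cells from 5.21 to 0.33 (-3.92 ± 0.40). The monocarboxylate transporter genes Slc16a1 (-0.62 in CD4+ and -0.95 in CD8+ T cells) and Slc16a3 (-1.12 ± 0.15 in CD8+ T cells) fell, while Bsg, which encodes their chaperone basigin, rose (0.57 and 0.63, and 0.13 and 0.10 under library size scaling).

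Of the partners and regulators of HIF-1α, 3 of 8 were higher and 3 lower in CD4+ (median -0.03) and 3 of 7 higher and 2 lower in CD8+ T cells (median -0.24), and under library size scaling 1 was higher and 5 lower in each lineage. Arnt, the dimer partner, fell from 30.2 to 13.5 TMM CPM in CD4+ (-1.16 ± 0.10) and from 27.0 to 11.9 in CD8+ T cells (-1.19 ± 0.12). Epas1, the gene of HIF-2α, rose from 19.8 to 56.2 (1.5 ± 0.12) and from 20.4 to 37.4 (0.87 ± 0.09). Of 14 other HIF target genes in each lineage, 4 were higher and 6 lower in CD4+ (median -0.10) and 5 higher and 6 lower in CD8+ T cells (median 0.01), and under library size scaling 2 and 9 and 4 and 7. Higd1a, which encodes a hypoxia-induced mitochondrial protein, rose in both (1.19 ± 0.05 and 1.56 ± 0.05), Ndrg1 rose in CD8+ T cells from 14.3 to 43.4 (1.59 ± 0.13), and Bhlhe40 fell there from 167 to 71.3 (-1.24 ± 0.08). Known HIF targets thus moved in both directions, as did all genes tested (34.7% higher and 35.8% lower in CD4+, 37.1% and 36.9% in CD8+ T cells).

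Beside glycolysis, 3 of 11 genes of pyruvate entry into mitochondria were higher and 1 lower in CD4+ (median 0.02), and 4 higher and 2 lower in CD8+ T cells (median 0.13), where 34.7% and 37.1% of all genes were higher. Under library size scaling 2 were higher and 7 lower in each lineage. Mpc1 and Mpc2, the subunits of the mitochondrial pyruvate carrier, were 0.97 and 0.95 higher in CD4+ and 1.20 and 1.13 higher in CD8+ T cells. Of 7 pentose phosphate genes, 5 were higher and 1 lower in CD4+ (median 0.32) and 2 higher and 3 lower in CD8+ T cells (median 0.09), and under library size scaling 2 and 3 and 2 and 5. Pgls, the lactonase of this branch, rose from 99.7 to 190.5 TMM CPM in CD4+ (0.94) and from 91.6 to 204 in CD8+ T cells (1.15).

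The deposited table of CD4+ cells also held the authors' glycolysis score per cell, a relative value without a unit. The genes of this score are not named and may include the members, so it is no separate measure. Its pool means were 0.0377, 0.0382 and 0.0389 with saline, 0.0381, 0.0408 and 0.0420 at 5 mg/kg and 0.0521, 0.0517 and 0.0493 at 50 mg/kg. All pools at 50 mg/kg lay above all others, a difference from saline with p = 0.1 in a two-sided exact permutation test, the smallest p that 3 against 3 pools allow. The lower dose pools overlapped the saline pools (p = 0.3, exact permutation test).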

How the data were processed

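The submitters' processing notes name Cell Ranger, Seurat 3.0.0 and the mouse build mm10, and the authors deposited raw UMI counts per gene and cell, without normalization. All 21204 cells of the table had the UMI sum given in the authors' tables of cells. Those tables also gave each cell's capture, hashtag pool, cluster, TCR clonotype, TEa mark, the fraction of mitochondrial counts, which the authors computed and which was only read here, and, for CD4+ cells, a glycolysis score computed by the authors. CD8+ clusters, numbered from 1 to 9 by the authors, were named C0 to C8 by their marker genes.

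Counts were summed per pool and lineage, cluster (at least 10 cells) or clonotype class and fitted with edgeR 4.0.16 in R 4.3.3 (TMM scaling, filterByExpr, quasi-likelihood test with all 3 groups in 1 fit, Benjamini-Hochberg adjustment over all genes, threshold 0.05). Lineage, clonotype and TEa comparisons had the pool as a block, since both parts come from the same mice. Standard errors are from these fits, and intervals span 2 standard errors either side. Alternatives were DESeq2 1.42.0, library size scaling, no filter on low counts, only the groups compared, cells outside the cycling clusters (CD4+ C3, C5 and C6, CD8+ C2, C3 and C4), cells with 3000 to 8000 UMIs, TEa cells included, other clonotype cutoffs and each pool left out. The score was tested by an exact permutation test over pools. The authors had marked doublets and dead cells, and the tables hold no cell marked as either. The scripts were tested on simulated data. The members, the gene lists and these tests were chosen with earlier results of these data known. From each other list, at most 4 genes per lineage were open to naming, those with the largest changes at 50 mg/kg among the called ones.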

Additional observations from a re-analysis of the deposited data

Results flagged for a closer look

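For 6 genes the dose change differed between the lineages of the same pools by the test of the difference itself (edgeR, log2, CD8+ change minus CD4+ change). With lower dose CSA the difference was 0.26 for Gapdh and -0.53 for Slc2a3. With higher dose CSA it was -0.82 for Hk2, -0.27 for Ldha, -0.60 for Pfkp, -0.25 for Pkm and -0.56 for Slc2a3. The share of cells in cycling clusters moved from 21.7% with saline to 33.1% with higher dose CSA in CD4+ T cells and from 53.3% to 45.1% in CD8+ T cells, and its part in these differences was tested only by leaving those clusters out. The differences were then 0.07 for Gapdh and -0.44 for Slc2a3 with the lower dose and -0.21 for Hk2, -0.21 for Ldha, -0.33 for Pfkp, -0.20 for Pkm and -0.56 for Slc2a3 with the higher dose, of which Gapdh, Slc2a3 with the lower dose and Hk2 did not pass.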

How the results depend on the processing

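The 3 groups were 3 captures, 3 pools per group cannot give an exact p below 0.1, and genes of few UMIs (Hk2, Slc2a1 and Slc2a3 within clusters) limit what can be tested. No paired analysis was possible because the pools of the dose groups carry different hashtags and come from different mice. Removing the pool block from the lineage, clonotype and TEa comparisons lost 3 calls among 60 values of single genes, gained 0, and turned the lineage difference of Aldoa at 50 mg/kg to 0.0016. In the dose comparisons, each member kept its direction and its side of the threshold without the filter on low counts, with only the groups compared and, for CD4+ T cells, with TEa cells included. The cause of the changes that follow was not tested.

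Library size scaling gave 3 members higher in CD4+ T cells with either dose and 5 lower between the doses. In CD8+ T cells it gave 3 higher against 5 lower with the lower dose and 1 higher against 8 lower with the higher dose, and 3 higher in CD8+ than in CD4+ saline pools. Over all genes it called 926 higher and 5718 lower of 10568 in CD4+ T cells at 5 mg/kg, and 1426 and 2877 between the doses. In CD8+ T cells at 5 mg/kg it called 1180 higher and 6270 lower of 10841, and between saline lineages 2090 and 2360 of 11177. Pairs of member and cluster were then 4 higher and 18 lower (5 mg/kg) and 13 and 28 (50 mg/kg) in CD4+ and 7 and 20 and 7 and 34 in CD8+ clusters. It turned Pgk1 (-0.057), Slc2a1 (-0.24) and Hk2 (-0.28) in CD4+ T cells at 5 mg/kg, Pgk1 (-0.010), Aldoa (-0.047) and Pkm (-0.051) at 50 mg/kg and Ldha (-0.0033) and Pkm (-0.052) between the doses. It turned Pgk1 (-0.096) and Pkm (-0.049) in CD8+ T cells at 5 mg/kg, Pgk1 (-0.19), Slc2a1 (-0.055), Ldha (-0.12), Aldoa (-0.11) and Pkm (-0.36) at 50 mg/kg and Pgk1 (-0.096) between the doses.

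DESeq2 called 2 members higher in CD8+ saline pools, 0 lower lineage differences with the lower and 3 with the higher dose, and in CD8+ clusters 5 pairs lower at 5 mg/kg and 5 higher between the doses. DESeq2 gave no adjusted p for the lineage difference of Slc2a3 at 5 mg/kg, so the 0 there is not a failed test. It turned the lineage differences of Pgk1 (0.017) and Pkm (0.0049) at 5 mg/kg and of Aldoa (0.018) at 50 mg/kg.

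Outside the cycling clusters 4 members (Hif1a, Hk2, Pfkp and Pkm) were lower between the doses in CD8+ T cells, 2 higher in CD8+ saline pools, 0 lineage differences higher and 0 lower at 5 mg/kg, and 0 members higher in expanded CD8+ clonotypes. Turned were Pkm between the doses in CD4+ T cells (-0.10), Slc2a1 (0.16) and Hk2 (0.53) in CD8+ T cells at 5 mg/kg, Pgk1 (-0.12) and Hk2 (-0.11) between saline lineages, the lineage differences of Pgk1 (0.11), Slc2a1 (0.10) and Hk2 (0.36) at 5 mg/kg and of Pgk1 (0.13) and Aldoa (0.049) at 50 mg/kg, and the clonotype differences of Slc2a3 in CD4+ (0.013) and Hk2 in CD8+ T cells (-0.12).

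Cells with 3000 to 8000 UMIs gave 4 members lower between the doses in CD8+ T cells and turned Hk2 in CD4+ T cells at 5 mg/kg (-0.65), Pgk1 (-0.024), Slc2a3 (0.14) and Pkm (-0.12) between the doses and Pkm in CD8+ T cells at 50 mg/kg (-0.073). With expanded clonotypes of at least 5 cells, 0 members in CD4+ and 2 in CD8+ T cells were called, and Hif1a in CD4+ T cells was at -0.062.

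Leaving out 1 pool at a time kept most counts within 1.5 times. Exceptions were lower members between the doses in CD4+ T cells (1 to 3, lowest without CSA 5 mg/kg pool 3), members higher (3 to 6, without saline pool 1 or 2) and lower (1 to 2, without saline pool 2 or 3) in CD8+ saline pools, lower lineage differences at 5 mg/kg (0 to 1, without CSA 5 mg/kg pool 1 or 3), expanded CD8+ clonotypes (3 to 5, without CSA 5 mg/kg pool 2), CD4+ cluster pairs lower at 5 mg/kg (4 to 7, without CSA 5 mg/kg pool 1), and CD8+ cluster pairs between the doses higher (5 to 9, without CSA 5 mg/kg pool 1) and lower (13 to 22, without CSA 5 mg/kg pool 2). Single values that changed sign were Hk2 in CD4+ T cells at 5 mg/kg (-0.045 to 0.22), Slc2a1 in CD8+ T cells at 5 mg/kg (-0.060 to 0.0031), Pgk1 in CD8+ T cells between the doses (-0.023 to 0.051), the lineage differences of Pgk1 (-0.041 to 0.031) and Pkm (-0.044 to 0.026) at 5 mg/kg and of Aldoa (-0.037 to 0.020) at 50 mg/kg, the CD8+ clonotype differences of Hk2 (-0.017 to 0.30) and Slc2a3 (-0.017 to 0.032) and the TEa differences of Ldha (-0.029 to 0.041) and Pfkp (-0.029 to 0.13).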
